A study of Canis lupus familiaris with 6 samples.

Results

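Macrophages and monocytes are followed here through 10 marker genes measured in the left ventricle of 6 dogs. The members were the probe sets whose only gene symbol in the array annotation was CD68, CD163, CD14, CSF1R, MRC1, LYVE1, TYROBP, FCER1G, MSR1 or AIF1. This gave 17 probe sets for the 10 genes, among 42924 probe sets and 15115 genes in all. The probe sets were taken by symbol alone and every one was kept, while the list of genes was drawn up with earlier results of these data known. Cardiomyopathy affected 3 Great Danes, a female of 9 years (affected 1) and males of 7 years (affected 2 and affected 3). The control group held a male Labrador retriever of 12 years (control 1), a female St. Bernard of 10 years (control 2) and a male Greater Swiss Mountain dog of 4 years (control 3). All tissue had been frozen in liquid nitrogen, and each dog gave 1 Affymetrix canine array. No control was a Great Dane, so breed and disease cannot be told apart.

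Macrophages are the main resident immune cells of the heart. They clear dead cells and debris, take up haemoglobin and iron, and respond to microbial products, and they depend on signals through the receptor tyrosine kinase CSF1R. Monocytes from the blood can enter injured heart muscle and become macrophages there.

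The deposited values are centred, so that 0 is the median of the 6 dogs for every probe set and a value of 1 lies 1 log2 unit above it. Levels of different genes, and how abundant any transcript was, cannot be read from them. The same holds for the tissue itself. All 10 cardiomyocyte markers were on the array and differed between the groups by -0.27 to 0.27 on the log2 scale, but their presence could not be checked. In whole tissue, fewer macrophages and less RNA per macrophage cannot be told apart. The arrays differed in ways the groups do not explain. Values below -1 were found in 1683 probe sets of control 3 and in 161 to 510 of any other dog. The spiked poly-A control transcripts stood at 2.34 on affected 3 and 0.56 on affected 1, and between -0.17 and 0.01 on the other 4 arrays. The 3' minus 5' difference of beta-actin, which is higher where RNA is more degraded, was 0.84 on affected 3, 0.25 on affected 1 and -0.13 on affected 2, and lay between -0.23 and 0.16 on the controls. That of GAPDH ran otherwise, at -0.01, 0.26 and -0.06 on affected 1 to 3 and at -0.03, 0.30 and -0.19 on control 1 to 3. The part of these differences in the marker values was not tested.

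The comparison asked whether macrophage and monocyte markers differ between the left ventricles of affected Great Danes and those of control dogs. None of the 17 probe sets passed in limma at an adjusted p under 0.05, and 0 passed at an unadjusted p under 0.05. Over all probe sets, 0.00233% passed the adjusted threshold and 10.9% the unadjusted one. The markers instead differed between dogs within each group. Affected 1 was the highest array in 13 of the 17 probe sets, against 5550 of all 42924. Affected 1 and control 1 were the highest pair in 12 of the 17. In genes, this pair was on top in 8 of 10 members, against 5.25% of all 15115 genes. Control 3 was the highest array in 21459 of all 42924 probe sets. The shares over all probe sets and all genes, here and below, include many that varied little. Of all 15115 genes, 3847 stayed within 0.1 of the array medians on every array. Shares among widely varying probe sets or genes alone were not taken. The mean over the 10 genes was 1.84 on affected 1, -0.13 on affected 2 and 0.08 on affected 3, and it was 1.17 on control 1, -0.50 on control 2 and -0.39 on control 3. Affected 1 and control 1 were the oldest dogs of their groups. Control 2, at 10 years, was older than affected 1 and had the lowest mean of all 6 dogs. With age as a term 1 of the 17 probe sets had an unadjusted p under 0.05 and 0 passed the adjusted threshold. Breed and sex also differed among the 6 dogs, so the part of age in the marker values cannot be told apart from theirs.

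**Figure D1:**
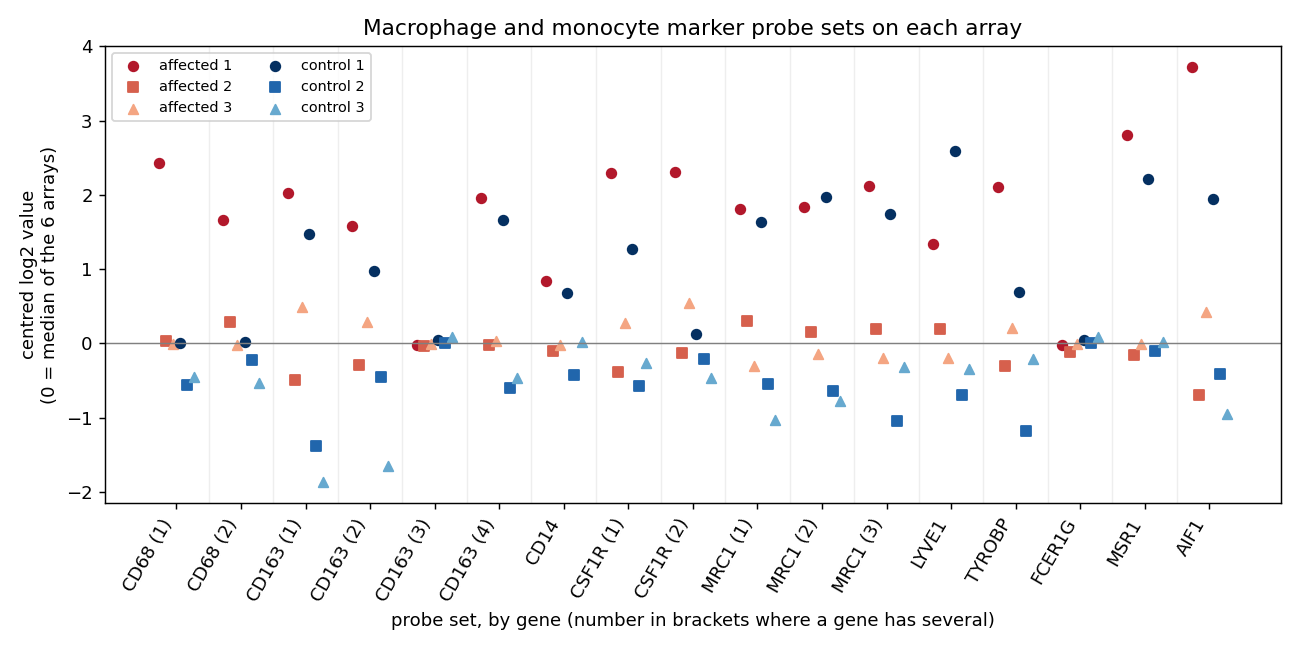
Centred log2 value (vertical axis) for each of the 17 probe sets of the 10 marker genes (horizontal axis), with 1 point per dog. Affected 1 is the highest point in 13 probe sets, and the probe sets of FCER1G and CD163 (3) are nearly flat.

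The lineage receptor and its signalling came first among the roles. CSF1R, the receptor for the growth factors CSF1 and IL34, had 2 probe sets. The first stood at 2.29, -0.38 and 0.27 in affected 1 to 3, against 1.28, -0.58 and -0.27 in control 1 to 3. The second stood at 2.31, -0.13 and 0.54 in affected hearts, against 0.13, -0.22 and -0.46 in controls. Affected 1 was highest in both, while control 1 was high in the first alone, so the probe sets disagreed on that dog. The mean of both differed by 0.84 (SE 0.74) between affected and control hearts, with a 95% confidence interval from -1.03 to 2.71 (limma adjusted p = 0.444).

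TYROBP and FCER1G are membrane adaptors that carry an activating tyrosine motif (ITAM), and myeloid receptors without a signalling tail of their own use them. TYROBP stood at 2.10, -0.30 and 0.21 in affected hearts and at 0.69, -1.18 and -0.21 in control hearts. It was highest in affected 1 and lowest in control 2, and the groups overlapped (difference 0.90, SE 0.79, interval -1.11 to 2.90, limma adjusted p = 0.444). The FCER1G probe set was nearly flat, at -0.02, -0.11 and -0.01 in affected hearts, against 0.05, 0.01 and 0.09 in control hearts. All of its affected values lay below all of its control values, a pattern shared by 46.9% of all probe sets. The FCER1G values stayed within 0.0796 of the median of all probe sets on the same array, so they held little beyond an offset common to the array. Its difference was -0.10 (SE 0.05, limma adjusted p = 0.322).

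In the scavenger and pattern recognition receptors CD163, MRC1, MSR1 and CD14, control 1 was high beside affected 1. CD163, which takes up complexes of haemoglobin and haptoglobin, had 4 probe sets, and 3 of them varied widely. The first stood at 2.02, -0.49 and 0.49 in affected hearts and at 1.48, -1.38 and -1.87 in control hearts. The second stood at 1.58, -0.29 and 0.29 in affected hearts and at 0.98, -0.45 and -1.66 in control hearts. Both had control 3 as the lowest dog. The fourth stood at 1.95, -0.03 and 0.03 in affected hearts, against 1.66, -0.60 and -0.47 in control hearts. The third had a range of 0.13 over the 6 arrays and stayed within 0.0113 of the median of all probe sets on each array. It was thus uninformative, and it entered the gene mean of 0.64 (SE 0.68, interval -1.09 to 2.37, limma adjusted p = 0.523).

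MRC1, the mannose receptor, was measured by 3 probe sets that ran alike. Their mean was 1.92, 0.22 and -0.22 in affected hearts and 1.78, -0.74 and -0.71 in control hearts. Affected 1 and control 1 differed little, and control 1 was the highest dog in 1 of the 3 (1.83 in affected 1 and 1.97 in control 1). The difference between the groups was 0.53 (SE 0.92, interval -1.81 to 2.87, limma adjusted p = 0.698).

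MSR1, the class A scavenger receptor for modified lipoproteins, stood at 2.81, -0.15 and -0.01 in affected hearts and at 2.21, -0.11 and 0.01 in control hearts. The remaining 4 dogs lay close together around 0, far below affected 1 and control 1. The group means were 0.88 ± 1.67 in affected and 0.70 ± 1.30 in control hearts (SD, n = 3 each), and the difference was 0.18 (SE 1.07, interval -2.52 to 2.87, limma adjusted p = 0.918). CD14, the co-receptor that hands lipopolysaccharide to TLR4, had the same order at the top with a smaller range. It stood at 0.84, -0.11 and -0.02 in affected hearts, against 0.68, -0.42 and 0.02 in control hearts. Its difference was 0.15 (SE 0.38, interval -0.83 to 1.12, limma adjusted p = 0.801).

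LYVE1, a hyaluronan receptor of lymphatic endothelium and of a resident macrophage subset, was the member in which control 1 was clearly on top. It stood at 1.34, 0.20 and -0.20 in affected hearts and at 2.59, -0.70 and -0.34 in control hearts. The difference was -0.07 (SE 0.99, interval -2.58 to 2.44, limma adjusted p = 0.967). Of the 6 lymphatic endothelial markers fixed beside it, 2 were higher at an unadjusted p under 0.05, where 4.88% of all genes were. These were the chemokine CCL21 at 1.83 (SE 0.33) and the secreted multimerin MMRN1 at 0.84 (SE 0.20), both with a limma adjusted p of 0.322 and without overlap between the groups, as in the 5.8% of all genes that lay higher in affected hearts in this way. FLT4 at -0.11 and RELN at 0.28 came next, and PROX1 at -0.43 and PDPN at 0.21 had the largest p. Of the 6 lymphatic genes 4 were above 0 and 2 below. CCL21 stood at 1.49, 0.44 and 1.34 in affected hearts, against -0.44, -1.05 and -0.74 in control hearts. The order of the dogs for CCL21 was thus unlike that for LYVE1.

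The intracellular markers set affected 1 further apart. AIF1, an actin-binding protein also called IBA1, had the widest range of the members, 4.68. It stood at 3.73, -0.69 and 0.42 in affected hearts and at 1.94, -0.42 and -0.96 in control hearts. Affected 2 lay below control 2, so the groups were interleaved (difference 0.96, SE 1.39, interval -2.56 to 4.48, limma adjusted p = 0.639). CD68, a glycoprotein of macrophage lysosomes, had 2 probe sets that ran alike. The first stood at 2.43, 0.03 and -0.01 in affected hearts and at 0.01, -0.56 and -0.46 in control hearts. The second stood at 1.66, 0.28 and -0.02 in affected hearts and at 0.02, -0.22 and -0.54 in control hearts. Control 1 was therefore not high in CD68, in contrast to MRC1, MSR1 and LYVE1. CD68 also had the largest difference between the groups among the 10 genes, 1.02 (SE 0.59, interval -0.47 to 2.52, limma adjusted p = 0.322). By gene, 8 of 10 members were above 0 and their median difference was 0.58. After quantile normalization 7 were above 0 with a median of 0.29, and with array medians subtracted 9 were, with a median of 0.66. Of all genes 35% were above 0 in the values as deposited, with a median of -0.07. In those values the median of all probe sets ran from -0.03 to -0.01 on affected and from 0.01 to 0.09 on control arrays. The share of all genes above 0 was not taken after either scaling, so 7 and 9 of 10 have no matching share.

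**Figure D2:**
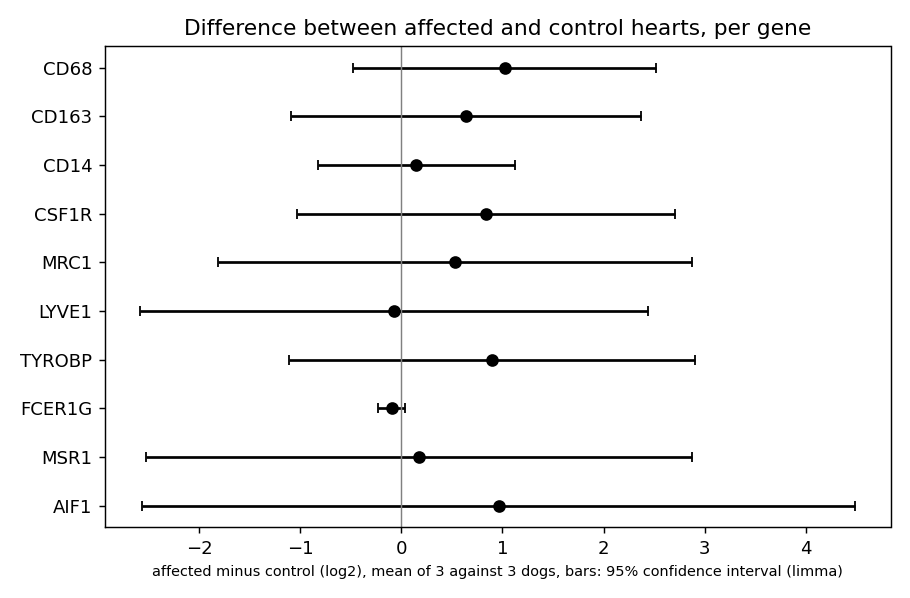
Difference of affected minus control hearts on the log2 scale (horizontal axis) for the mean of all probe sets of each of the 10 genes (vertical axis), with 95% confidence intervals from limma over 3 against 3 dogs. Every interval includes 0, and CD68 has the largest difference, 1.02.

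The spread between dogs of 1 group was wide for these genes. The pooled SD within groups had a median of 1.08 over the 10 members and of 0.14 over all genes, and in 9 members it was above that of 90% of all genes. FCER1G was the exception, with a larger SD than 18.8% of genes. AIF1 ranged over 4.42 among the 3 affected dogs and over 2.90 among the 3 control dogs. In CD68 the range was 2.06 among affected and 0.51 among control dogs, whereas in LYVE1 it was 1.54 among affected and 3.29 among control dogs.

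The size of the group difference varied with the dogs in the fit, and its sign turned without affected 1. In that fit the median of the 10 differences was -0.11 and 4 of 10 genes were above 0. Without control 1 it was 1.19 with 9 of 10 genes above 0. It was 0.26 without control 2 and 0.18 without control 3. Without affected 2 or affected 3 it was 0.86 in both fits. MSR1 differed by -0.79 without affected 1 and by 0.93 without control 1, and AIF1 by -0.33 and 1.84 in these fits. In all 6 fits the differences of 4 genes stayed above 0, from 0.36 to 1.39 for CD68, from 0.18 to 1.25 for CD163, from 0.09 to 1.37 for CSF1R and from 0.18 to 1.38 for TYROBP. In these 6 fits 0 of the 17 probe sets passed the adjusted threshold in limma, and at most 1 had an unadjusted p under 0.05.

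**Figure D3:**
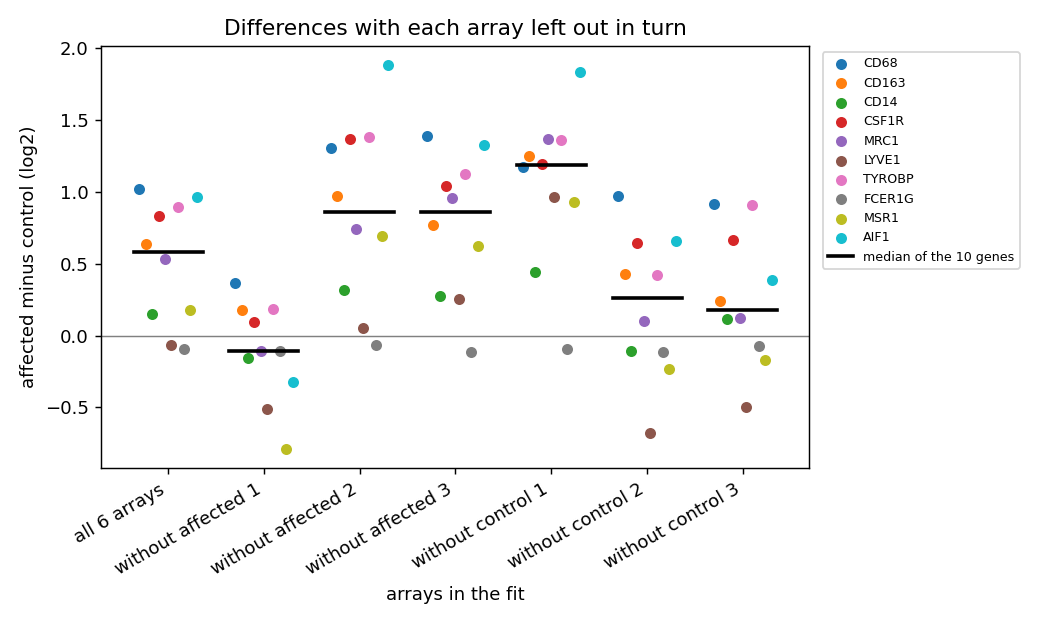
Difference of affected minus control hearts (vertical axis, log2) for each of the 10 genes as a point and for their median as a bar, with all 6 arrays and with each array left out in turn (horizontal axis). The median lies at -0.11 without affected 1 and at 1.19 without control 1.

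Other genes of the same pathways were taken from 6 lists, with 60 genes measured beyond the members. Of these, 1 was higher and 4 were lower at an unadjusted p under 0.05, against 4.88% and 5.64% of all genes, and 0 passed the adjusted threshold in limma. The list of 23 other tissue macrophage genes had 16 above 0, a median difference of 0.72 and 0 at an unadjusted p under 0.05. Its genes with the smallest p were LGALS3, the galectin of phagocytes, at 0.74 (SE 0.32), the class II chaperone CD74 at 1.58 (SE 0.73), the monocyte chemokine receptor CCR2 at -0.13 and the sialic acid receptor SIGLEC1 at -0.75 (SE 0.38). All of these had a limma adjusted p of 0.322. The list's median per array was 1.47, -0.07 and 0.07 in affected hearts, against 0.43, -0.35 and -0.65 in control hearts. Affected 1 was the highest array in 16 of the 23 genes (2259 of all 15115 genes). Affected 1 and control 1 were the highest pair in 11 of the 23 (793 of all 15115). SIGLEC1 went the other way, at -0.03, -0.05 and -0.07 in affected hearts and 0.57, 0.03 and 1.50 in control hearts.

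The complement C1q chains, which macrophages make, had the same pair of dogs on top as most members. C1QA stood at 2.55, 0.0033 and -0.0033 in affected hearts and at 1.48, -0.35 and -1.16 in control hearts, and the top of C1QB and C1QC was also affected 1 (3.16 and 2.55) followed by control 1 (1.64 and 1.54).

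The partners of CD14 held the related gene that was higher at an unadjusted p under 0.05. TLR4, the lipopolysaccharide receptor, differed by 0.97 (SE 0.37, limma adjusted p = 0.322). It stood at 1.05, -0.05 and 0.87 in affected hearts, against 0.05, -0.78 and -0.33 in control hearts, so affected 3 was high here and control 1 was not. In the same list of 5 measured genes the kinase IRAK4 differed by -0.25 (SE 0.08, limma adjusted p = 0.322), LY96, the partner of TLR4, by 0.72 and TLR2 by 0.43. In the haemoglobin scavenging list of 5 measured genes, the haem-degrading enzyme HMOX1 differed by -0.53 (SE 0.15, limma adjusted p = 0.322). It stood at -0.38, -0.14 and -0.07 in affected hearts, against 0.51, 0.07 and 0.41 in control hearts. HMOX1 was lowest in affected 1, where CD163 was highest, but highest in control 1, where CD163 was also high at 1.04. The iron exporter SLC40A1 differed by -0.39, BLVRB by -0.10 and the ferritin heavy chain FTH1 by 0.17.

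A list of CSF1R ligands (CSF1 and IL34), the related growth factor CSF2 (GM-CSF) with its receptor chains CSF2RA and CSF2RB, and SPI1 showed small differences. Of 6 measured genes 1 was above 0 (2 after quantile normalization), and CSF2 at -0.28, CSF2RB at -0.09, CSF2RA at -0.08 and SPI1, a transcription factor of myeloid cells, at -0.07 had the smallest p. Only CSF2 had an unadjusted p under 0.05. In 3 of the 6 all values lay within 0.1 of the median of the same array. Among 12 receptors and kinases that work with TYROBP and FCER1G, 0 had an unadjusted p under 0.05 in either direction in limma, and 5 stayed within 0.1 of the array medians. The kinase FGR at -0.42, FCER1A at -0.10, CLEC5A at -0.10 and PLCG2 at 0.31 had the smallest p. Affected 1 and control 1 were the highest pair in 3 of the 12 genes (793 of all 15115). Among them was FCGR1A, at 3.24, -0.14 and -0.33 in affected hearts and at 3.44, -0.08 and 0.08 in control hearts (difference -0.23, SE 1.42). Among 9 integrin and phagocyte oxidase genes 1 had an unadjusted p under 0.05, the lymphocyte integrin ITGAL at -0.14, followed by NCF4 at -0.24, NCF1 at -0.09 and CYBB at 0.64.

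Markers of the other cell types were set beside the members. The 7 genes of all leukocytes were all above 0 (6 of 7 after quantile normalization), with 0 at an unadjusted p under 0.05 in limma. Affected 1 was the highest array in 6 of the 7 (2259 of all 15115 genes). CORO1A at 0.25, CD48 at 0.79, LCP1 at 0.45 and ARHGDIB at 0.26 had the smallest p. The list's median was 0.93, -0.05 and -0.04 in affected hearts, against 0.27, -0.02 and 0.05 in control hearts. The medians of the T cell, B cell, dendritic cell and mast cell lists did not share this order. The median of 9 T cell genes ran from -0.05 to -0.02 in affected hearts and from 0.01 to 0.10 in control hearts, and affected 1 was the highest array in 0 of them. For 5 B cell genes it ran from -0.05 to -0.02 in affected and from 0.02 to 0.16 in control hearts, for 6 dendritic cell genes from -0.03 to -0.01 in affected and from 0.01 to 0.17 in control hearts, and for 6 mast cell genes from -0.04 to -0.02 in affected and from 0.02 to 0.10 in control hearts. Affected 1 was the highest array in 1 of the dendritic cell genes and in 0 of the B cell and mast cell genes. In 5 of the T cell, 4 of the B cell, 3 of the dendritic cell and 5 of the mast cell genes all values lay within 0.1 of the array medians. Of all 15115 genes, 3847 did so. The median of all genes ran from -0.03 to -0.01 in affected hearts and from 0.01 to 0.09 in control hearts. With array medians subtracted, the median difference was -0.0027 for the T cell and -0.051 for the B cell list. It was -0.025 for the dendritic cell and -0.013 for the mast cell list. The B cell gene MS4A1 at -0.32 was the only gene of these lists at an unadjusted p under 0.05 in limma (adjusted p = 0.322). Of all genes, 5.64% were lower at the unadjusted threshold.

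Neutrophil markers stood above 0 in 0 of 8 measured genes (1 of 8 after quantile normalization). All values of 4 of them lay within 0.1 of the array medians. At an unadjusted p under 0.05, 2 of the 8 were lower, where 5.64% of all genes were. These were the calgranulins S100A8 at -2.14 (SE 0.47) and S100A9 at -2.71 (SE 0.60). Both had a limma adjusted p of 0.322, and CAMP at -0.23 and MPO at -0.09 came next. S100A9, which monocytes also express, stood at -0.61, -0.63 and -1.95 in affected hearts, against 2.07, 0.61 and 2.28 in control hearts. S100A9 was thus low in affected 1, the dog with the highest macrophage markers, but lower still in affected 3. It was high in control 1, where most macrophage markers were also high. Groups without overlap and lower in affected hearts made up 41.7% of all genes.

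Adipocyte and fibroblast markers were also high on affected 1. The median of 5 adipocyte genes was 1.50 on affected 1, -0.02 on affected 2 and -0.12 on affected 3, and it lay between -0.06 and 0.12 on the controls. PLIN1 at -0.06, CIDEC at 1.16, FABP4 at 0.71 and ADIPOQ at 0.61 had the smallest p, and 0 had an unadjusted p under 0.05 in limma. CIDEC alone stood at 4.00 on affected 1. The 9 fibroblast genes had medians of 0.99, 0.03 and 0.66 in affected hearts, against -0.31, -0.03 and -1.35 in control hearts. Their median on control 1 was thus below 0, unlike that of the macrophage markers. At an unadjusted p under 0.05, 5 of the 9 fibroblast genes were higher, where 4.88% of all genes were. POSTN at 2.93, COL1A1 at 1.75, COL3A1 at 1.39 and DCN at 1.03 had the smallest p (limma adjusted p = 0.322 for each). The 2 below 0 were PDGFRA at -0.69, which was highest on control 1 at 2.03, and TCF21 at -0.18, which stood at -1.60 on affected 1; they were named after their values were seen. The blood platelet and red cell list of 4 measured genes was highest on control 2, at 1.21, while its median was -0.02, -0.05 and -0.02 in affected hearts and 0.05 and 0.15 on control 1 and control 3. On control 2, ALAS2 stood at 5.53 and PPBP at 2.41, but ITGA2B and GP9 at 0.01. In 2 of the 4 genes all values lay within 0.1 of the array medians. The genes of this list, ALAS2 at -1.52, PPBP at -1.04, ITGA2B at -0.09 and GP9 at -0.08, did not pass an unadjusted p of 0.05. The part of other cell types in the marker values was not tested.

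The remaining lists covered vessels and muscle. The 8 blood endothelial genes had medians of -0.42, -0.07 and 0.21 in affected hearts, against -0.38, 0.55 and 0.10 in control hearts, so the dogs with the highest macrophage markers had the lowest endothelial medians. VWF at 0.89, ERG at -0.27 and PECAM1 at -0.82 had an unadjusted p under 0.05, and CDH5 at -0.30 came next. Of all genes, 4.88% were higher and 5.64% lower at this threshold. Smooth muscle and pericyte genes (6 measured) had medians of 0.09, 0.09 and -0.27 in affected hearts, against 0.17, -0.19 and 0.03 in control hearts, with RGS5 at -0.35, ACTA2 at 0.28, CNN1 at 0.25 and PDGFRB at -0.20. Cardiomyocyte genes had medians between -0.03 and 0.10 in affected and between -0.19 and 0.02 in control hearts, with ACTC1 at 0.25, the 1 gene of that list at an unadjusted p under 0.05, TNNT2 at 0.25, MYL3 at 0.14 and MYL2 at 0.18.

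**Figure D4:**
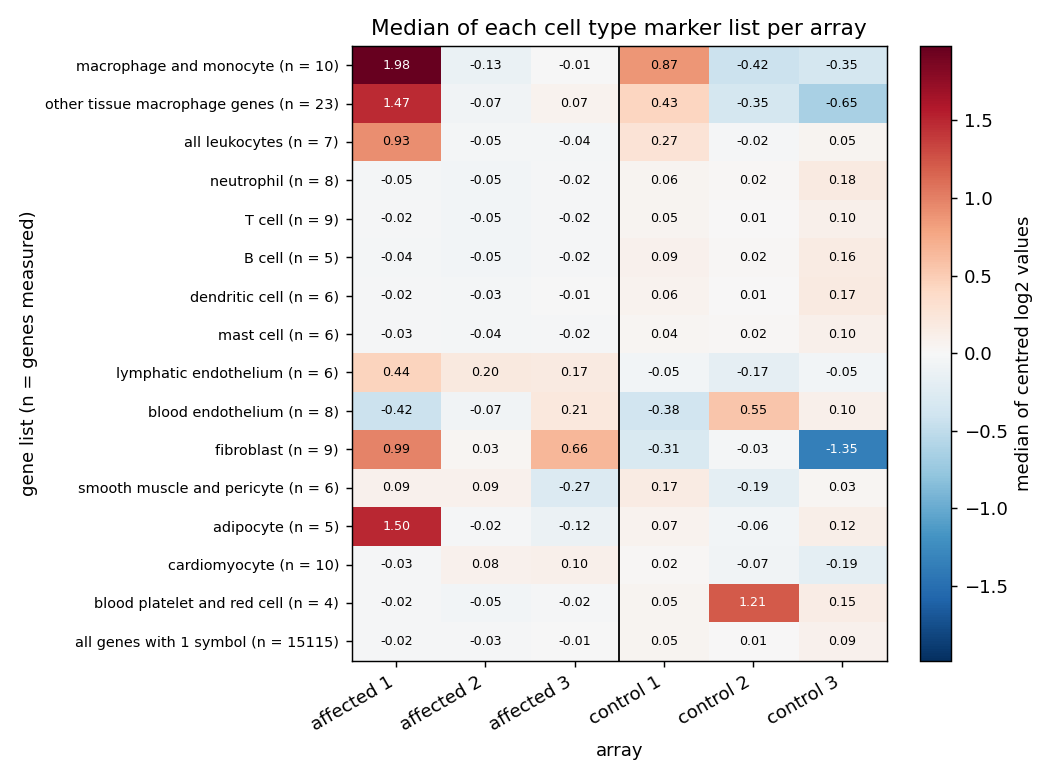
Median of the centred log2 values on each array (columns, 3 affected and 3 control) for the marker lists (rows, with the number of genes measured), printed in each cell. The macrophage and monocyte list reads 1.98 on affected 1 and 0.87 on control 1, and the T cell list lies between -0.05 and 0.10 on all arrays.

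The genes whose values over the 6 arrays came closest to the mean of the 10 members were sought among 6997 named probe sets with a range of at least 1. Likeness was the root mean square difference on the log2 scale. The nearest were CD86, a co-stimulatory ligand of antigen-presenting cells (0.227), DHDH, a dihydrodiol dehydrogenase (0.252), SCARA5, a scavenger receptor (0.266), PTPN6, a tyrosine phosphatase of blood cells (0.282), and C1QC (0.286). CD86 stood at 1.70, -0.07 and 0.07 in affected hearts, against 0.72, -0.51 and -0.68 in control hearts. With 6 arrays and 6997 candidates such closeness is a description of these arrays.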

How the data were processed

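Left ventricular RNA was labelled with biotin by the standard Affymetrix procedure in 1 cycle, per the labels' protocols. The deposited values were taken as log2 values of the authors. Per the submitters' processing notes, MAS5 and GCRMA were used, in an unstated role, and the log2 scale was taken from those names and from how far the values reach. The median of each probe set over the 6 arrays was at most 5e-07 from 0, so levels are unknown. The genome build is not given in the sources used here. Of 43035 probe sets, 111 controls were left out. In the annotation 29254 probe sets had 1 symbol, 439 had several and 13231 had none listed.

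All 42924 probe sets were fitted without a filter with a single term for disease group in limma 3.58.1 under R 4.3.3 (lmFit, then eBayes without a trend). The tests were two-sided, on 4 residual degrees of freedom plus prior ones from eBayes (1.13 for probe sets and 1.28 for genes). The p-values were adjusted over all probe sets by the Benjamini-Hochberg method. A gene's value is the mean of its probe sets, fitted likewise over 15115 genes. Of the 17 member probe sets, 8 are of a type (_s_at) that can match several transcripts. The fit was tested on simulated data. The precision is limited by the number of arrays, 3 per group.

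The members, the 6 related lists and the 14 marker lists were chosen with earlier results of these data known. All members were named, as were up to 4 genes per list, by smallest p, and the 5 nearest profiles. C1QA, C1QB, C1QC, FCGR1A, PROX1, PDPN, PDGFRA and TCF21 were named in addition, after their values were seen. Alternatives were filters on range, quantile and median scaling, sex, age, a replicate block, a robust variance prior, the probe set with the largest range per gene, and leaving out each array.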

Additional observations from a re-analysis of the deposited data

How the results depend on the processing

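The count of 0 marker probe sets past the adjusted threshold in limma held in all 15 alternatives run. At an unadjusted p under 0.05 it was 1 with age as a term and 3 with the replicate block, and 0 to 1 with 1 array left out. The median difference of the 10 genes ran from -0.11 without affected 1 to 1.19 without control 1, and the number above 0 then ran from 4 to 9. It was 0.84 over the 9 genes that passed the filter on the smallest range, and 0.29 after quantile normalization. Single values changed sign as follows, none of them past the threshold on either side. LYVE1 was at 0.0042 with the median of each array subtracted and 0.23 with age, and at -0.68 without control 2 to 0.97 without control 1. MSR1 was at -0.061 after quantile normalization, and at -0.79 without affected 1 to 0.93 without control 1. With 1 array left out, AIF1 ran from -0.33 to 1.88, CD14 from -0.15 to 0.44 and MRC1 from -0.11 to 1.37. The MRC1 probe sets ran from -0.014 to 1.39, from -0.18 to 1.32 and from -0.13 to 1.39. The fourth CD163 probe set ran from -0.20 to 1.18 and the first CSF1R probe set from -0.20 to 1.15. The flat CD163 probe set was at 0.015 after quantile normalization and 0.0052 with array medians subtracted. The cause of these changes was not tested.

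Over all probe sets, 1 passed the adjusted threshold in limma as reported, 6 did with the 40% of smallest range left out, 91 with a range of at least 1, and 0 after quantile normalization, with age or with the replicate block. It was 0 to 5 with 1 array left out. At an unadjusted p under 0.05, 1945 were higher and 2713 lower as reported. Higher ones were 880 with a range of at least 1, 2919 with age, and 1097 to 3100 with 1 array left out. Lower ones were 771 with the smallest ranges left out, 248 with a range of at least 1, 1097 with array medians subtracted, 9745 with age, and 655 without affected 1 to 12212 without control 2. Among the 60 related genes, 1 higher and 4 lower became 3 and 2 with the smallest ranges left out, 10 and 0 with a range of at least 1, 0 and 2 after quantile normalization, 8 and 9 with age, and 9 and 1 with the replicate block. Higher ones were 2 with sex and 0 with the probe set of largest range per gene, and lower ones 2 with array medians subtracted. With 1 array left out, 0 to 5 were higher and 1 to 12 lower. The range filters used the same 6 arrays as the fit, and the limma variance prior was estimated again from the rows kept. With a range of at least 1, AIF1 stayed at 0.96 while its unadjusted limma p went from 0.518 to 0.219. For CD14, at an unchanged 0.15, it went from 0.715 to 0.752. Counts under these filters are thus not comparable with those of the unfiltered fit. Subtracting array medians also put 9 of 10 marker genes above 0. The labels give same-numbered arrays of the groups no link beyond the number, so the replicate block is no paired test. The correlations of their deviations over probe sets were 0.27, 0.15 and 0.022 for replicates 1 to 3. These cannot show whether such arrays were processed together, and a shared batch was not tested. The number of arrays, 3 per group, limits precision, and signal over background is unknown in centred values.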
